A study of Sus scrofa with 20 samples.

Results

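Pig genes of the fatty acid binding protein family, the 5 members FABP1 to FABP5, were followed through testis and liver of boars with high or low androstenone. A reference ID of the count files was assigned to a gene when its RefSeq accession, with the version dropped, matched that gene's symbol in the RefSeq table of Sscrofa11.1. This gave 4 IDs of 21755 in all, 1 each for FABP1 (NM_001004046.1), FABP2 (NM_001031780.1), FABP3 (NM_001099931.1) and FABP5 (NM_001039746.1). No ID was matched to FABP4, which was not analysed here. FABP3 was chosen by its lower level in high androstenone testis in these same samples, so its values in that comparison are given as a description without a test.

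The study sequenced RNA from testis and liver of 10 boars, 5 with high and 5 with low androstenone in their fat. The animals were Duroc × F2 crosses, the F2 descending from Leicoma, German Landrace and Large White pigs, and the boars of all 4 groups are labelled as 116 days old. Each sample gave 1 library of amplified full-length cDNA, read as single reads on 1 lane, and the groups are named Testis Low, Testis High, Liver Low and Liver High, each with samples 1 to 5. The labels do not say which testis and which liver came from the same boar, and the comparisons of the tissues treat the samples as separate.

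Fatty acid binding proteins are small proteins of the cytoplasm that hold fatty acids and other lipids in a barrel-shaped pocket and carry them between membranes, enzymes and nuclear receptors. The members are also named after a tissue or cell type: FABP1 after the liver, FABP2 after the intestine, FABP3 after heart and muscle, FABP4 after the adipocyte and FABP5 after the epidermis. In the testis, lipids serve both the steroid-producing Leydig cells and the germ cells with the Sertoli cells that nourish them. Androstenone is a steroid of the Leydig cell that is stored in fat and degraded in the liver.

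The smallest testis library held 6161397 counts and the largest 15975386, and the liver libraries spanned 5796973 to 26783002 counts. In each tissue 5 libraries held over 10000000 counts (at least 12462278) and 5 held fewer (at most 8593568). The larger libraries were Testis Low 3, 4 and 5, Testis High 1 and 2, Liver Low 1, 2 and 5, and Liver High 1 and 3. Levels are given as counts per 1000000 (CPM) with TMM scaling over all 20 samples. At these depths, 3 counts equalled 0.188 to 0.487 CPM in testis and 0.112 to 0.518 CPM in liver before scaling, and lower levels were not separable from 0 by counting error. The labelled tissues were checked by marker genes. ALB, the albumin gene of hepatocytes, lay between 0.506 and 31.3 CPM in the testes and between 77685 and 226301 CPM in the livers. TNP1, a chromatin protein of spermatids, averaged 806 CPM in Testis Low and 814 in Testis High against 0.699 in Liver Low and 0.450 in Liver High. CPM are not corrected for transcript length, so levels were compared between samples of the same gene and not between genes.

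FABP1, the liver member, was abundant in every liver and nearly absent from every testis. Its level in Liver Low samples 1 to 5 was 954, 1147, 542, 413 and 841 CPM. In Liver High samples 1 to 5 it was 1149, 473, 500, 437 and 476 CPM. The group values were 779 ± 300 CPM (SD, n = 5) in Liver Low and 607 ± 304 CPM (SD, n = 5) in Liver High, and the groups overlapped over most of their range. All 10 testes together gave 27 reads of FABP1, with 8 in the highest sample and 0 in the lowest, whereas the 10 livers gave 63240. Per count sequenced, FABP1 was 2001 times higher in liver (95% interval 1375 to 3037, counting error only).

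FABP2, the intestinal member, stood at the edge of detection in both tissues. It had 1 read in each of Testis Low 1, 4 and 5 and 0 reads in the other 7 testes. Among the livers, Liver Low 2, 3 and 5 and Liver High 3 had 1 read each, Liver High 5 had 5 reads, and the other 5 had 0. Thus 3 reads in testis stood against 9 in liver, a liver over testis ratio of 2.56 per count sequenced with a 95% counting interval of 0.640 to 14.7. The fitted tissue difference of this gene, given further on, rests on the same few reads.

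FABP3, the member of heart and muscle, was found in every testis and at a much lower level in liver. In Testis Low samples 1 to 5 it stood at 21.7, 31.7, 20.5, 25.7 and 30.6 CPM, from 223 to 483 reads. Testis High samples 1 to 5 gave 12.2, 16.2, 15.9, 11.2 and 13.1 CPM, from 94 to 374 reads. Every Testis High sample lay below every Testis Low sample, which is the pattern that chose the gene. In Liver Low samples 1 to 5 the level was 1.38, 1.12, 4.26, 1.14 and 1.02 CPM. The corresponding levels in Liver High were 0.870, 2.71, 3.84, 0.224 and 0.733 CPM. The highest and the lowest liver of each group thus differed several-fold, and Liver High 4 rested on a single read.

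FABP5, the epidermal member, was present at similar levels in both tissues with a wide spread between boars. In Testis Low samples 1 to 5 it reached 10.3, 28.9, 46.1, 74.8 and 46.7 CPM. Testis High samples 1 to 5 gave 23.0, 44.7, 39.2, 15.5 and 31.6 CPM. Liver Low samples 1 to 5 gave 36.6, 28.3, 19.96, 49.1 and 24.4 CPM, and Liver High samples 32.8, 46.6, 75.3, 13.2 and 29.5 CPM. All 4 groups overlapped, and the highest testis exceeded the lowest by 7.25 times. The coefficient of variation of FABP5 was 57.9% in Testis Low and 38.4% in Testis High, against 19.4% and 16.3% for FABP3 in the same libraries. A small spread of FABP3 within these groups belongs to the pattern that chose it. In Liver Low and Liver High the coefficients were 36.3% and 59.0% for FABP5, against 77.9% and 91.5% for FABP3, which had fewer reads there. FABP5 is a neighbour of FABP4 and PMP2 in the RefSeq table, and how reads that match several of these related sequences were counted is not given in the sources used here.

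**Figure D1:**
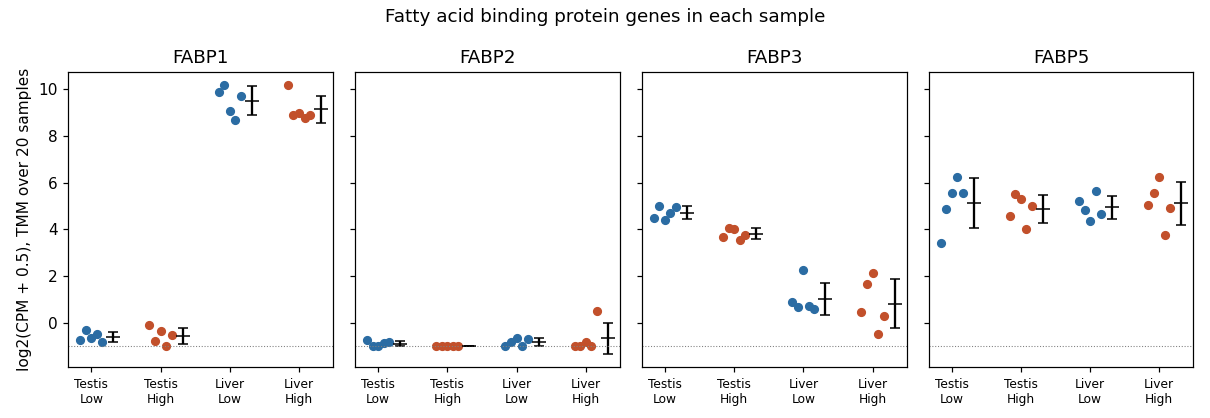
Level of FABP1, FABP2, FABP3 and FABP5 in each of the 20 samples, as log2(CPM + 0.5), by tissue and androstenone group. Points are samples 1 to 5 from left to right, the black dash with bars is the mean ± SD of the 5 log2 values, and the dotted line marks 0 CPM. FABP1 separates the tissues, FABP3 is higher in testis, FABP5 overlaps in all groups and FABP2 lies near the dotted line.

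The first comparison asked in which tissue each gene was more abundant, over both androstenone groups. FABP1 was higher in liver, with 693 ± 299 CPM (SD, n = 10) against 0.182 ± 0.132 CPM (SD, n = 10) in testis. Its log2 fold change, testis over liver, was -11.80 (SE 0.42, adjusted p = 3.57e-18 by the quasi-likelihood test of edgeR). FABP3 was higher in testis, with 19.9 ± 7.47 CPM (SD, n = 10) against 1.73 ± 1.38 CPM (SD, n = 10) in liver. That is a log2 fold change of 3.41 (SE 0.32, adjusted p = 3.83e-10), or 10.6-fold with a 95% interval of 6.75 to 16.7. Each of the 10 testes exceeded each of the 10 livers in FABP3, as they did for 27.5% of the 19065 IDs tested, and each liver exceeded each testis in FABP1, as for 15.3%. In bulk tissue, a lower share of the cells that express a gene and less of its RNA per cell cannot be told apart.

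FABP5 did not differ between the tissues beyond its spread, with 36.1 ± 18.6 CPM (SD, n = 10) in testis and 35.6 ± 17.8 CPM (SD, n = 10) in liver. The log2 fold change was 0.013 (SE 0.30, adjusted p = 0.972 by the quasi-likelihood test), with a 95% interval from -0.60 to 0.62. This value depended on the scaling. With raw library totals it was 1.02 (adjusted p = 0.00234), which would call FABP5 higher in testis. The median of all tested IDs moved with the scaling too, from 0.31 with TMM to 1.28 with raw totals. Relative to that median, FABP5 lay at -0.30 with TMM and at -0.27 with raw totals, FABP3 at 3.10 and 3.16, and FABP1 at -12.11 and -12.13. These 3 genes thus kept nearly the same distance from the median, whereas the sparse FABP2 moved from -2.64 to -2.97.

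Of the 4 genes tested, 3 were called different between the tissues, which required an adjusted p below 0.05 together with a change of 1.5-fold or more, next to 75.7% of all 19065 IDs tested. FABP3 was called higher in testis, as were 43.5% of all IDs, and FABP1 and FABP2 were called higher in liver, as were 32.2%. With raw totals, 76.0% of the calls were higher in testis instead of 57.4%. The call of FABP2 (adjusted p = 0.0232) rests on the 12 reads listed above, of which Liver High 5 holds 5, and without that library FABP2 fell below the minimum of 10 counts. It was not called by DESeq2 (adjusted p = 0.0574) or with raw library totals (adjusted p = 0.107).

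The tissue difference of FABP3 was present within each androstenone group. FABP3 was chosen by the difference between Testis Low and Testis High, so its values within a group are a description without a test. Testis exceeded liver by a log2 fold change of 3.89 (SE 0.45) in the low group. In the high group, whose testis values were lower by that choice, the difference was 2.92 (SE 0.44). For FABP1 the values were -12.16 (SE 0.60) in the low and -11.43 (SE 0.58) in the high group. FABP5 gave 0.39 (SE 0.42, adjusted p = 0.415) in the low and -0.37 (SE 0.42, adjusted p = 0.448) in the high group, so neither group separated the tissues. For a given gene these values of the low and high group were compared with each other only through the interaction given further on.

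The second comparison asked whether androstenone groups differed in testis, where androstenone is made. FABP3 averaged 26.0 ± 5.06 CPM (SD, n = 5) in Testis Low and 13.7 ± 2.23 CPM (SD, n = 5) in Testis High. Its log2 fold change, high over low, was -0.94, a 1.92-fold lower level. The 2 samples nearest to the boundary between the groups were Testis Low 3 with 20.5 CPM and Testis High 2 with 16.2 CPM. Of the 18340 IDs tested in testis, 1.1% had every high sample below every low sample. The difference was -0.87 among the 5 larger libraries and -0.99 among the 5 smaller ones, both of them parts of the values that chose the gene.

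FABP5 averaged 41.4 ± 23.9 CPM (SD, n = 5) in Testis Low and 30.8 ± 11.8 CPM (SD, n = 5) in Testis High, a difference smaller than the SD of either group. The log2 fold change was -0.45 (SE 0.39, adjusted p = 0.728 by edgeR), with a 95% interval from -1.28 to 0.38. An exact two-sided permutation test on log2(CPM + 0.5) gave p = 0.643 (n = 5 per group, 0.935 after adjustment over 7 tests of this kind, smallest p possible 0.00794). Library size moved with FABP5 in Testis Low, where the 3 larger libraries had 46.1 to 74.8 CPM and the 2 smaller ones 10.3 and 28.9 CPM. In Testis High, the 2 larger libraries had 23.0 and 44.7 CPM and the 3 smaller ones 15.5 to 39.2 CPM. The high over low difference was -0.74 among larger libraries and 0.57 among smaller ones. With a term for library size in the fit of all 10 testes it was -0.12 (adjusted p = 0.938 by edgeR).

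FABP1 in testis was at or below 3 reads in 8 of 10 samples, and its log2 fold change of 0.35 (SE 0.66, adjusted p = 0.886 by edgeR) is a value at the floor. FABP2 did not reach 10 reads in testis and was not fitted. Neither FABP1 nor FABP5 was called, next to 0.0% of the 18340 IDs tested in testis. At an unadjusted p under 0.05, 9.49% of the IDs passed. DESeq2 called 120 IDs of the same table, and 225 were called when edgeR's likelihood ratio test used only the trended dispersion.

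Among markers of the cells a testis sample could hold, the summed level of 3 Sertoli cell genes ranged from 12139 to 21790 CPM in Testis Low and from 4026 to 13409 CPM in Testis High. Nearly all of this sum was CLU, which liver also expressed at a mean of 10869 CPM in Liver Low. The other 2 genes of the list were AMH, a hormone of immature Sertoli cells, with 6.34 CPM in Testis Low and 5.96 in Testis High, and SOX9 with 3.79 and 2.85 CPM. The sum of 4 Leydig cell genes ranged from 694 to 3324 CPM in Testis Low and from 823 to 3406 in Testis High. Most of it was INSL3, with means of 1444 and 1715 CPM. CYP17A1 averaged 205 CPM in Testis Low and 375 in Testis High, LHCGR 6.99 and 8.05, and HSD3B1 3.55 and 2.74. The sum of 3 germ cell genes ranged from 847 to 2154 and from 1364 to 2325 CPM. Muscle was of interest because FABP3 is a muscle gene. The sum of its 4 genes ranged from 13.7 to 70.6 CPM in Testis Low and from 19.0 to 53.2 in Testis High. Most of it was ACTA1, with means of 26.3 CPM in Testis Low and 29.0 in Testis High. MYH7, the myosin heavy chain of heart and slow muscle, averaged 5.54 CPM in Testis Low and 3.66 CPM in Testis High, with 2.55 to 9.30 CPM over the testes, and was at 0 in every liver. MYL2, a myosin light chain of the same fibres, was at 0 in 19 of 20 samples, and TNNC1, a troponin of the same muscles, averaged 0.405 CPM in Testis Low and 0.328 CPM in Testis High. None of the marker genes was called between the androstenone groups in testis, next to 0.0% of all 18340 IDs. The part of cell composition in the FABP3 and FABP5 values was not tested.

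**Figure D2:**
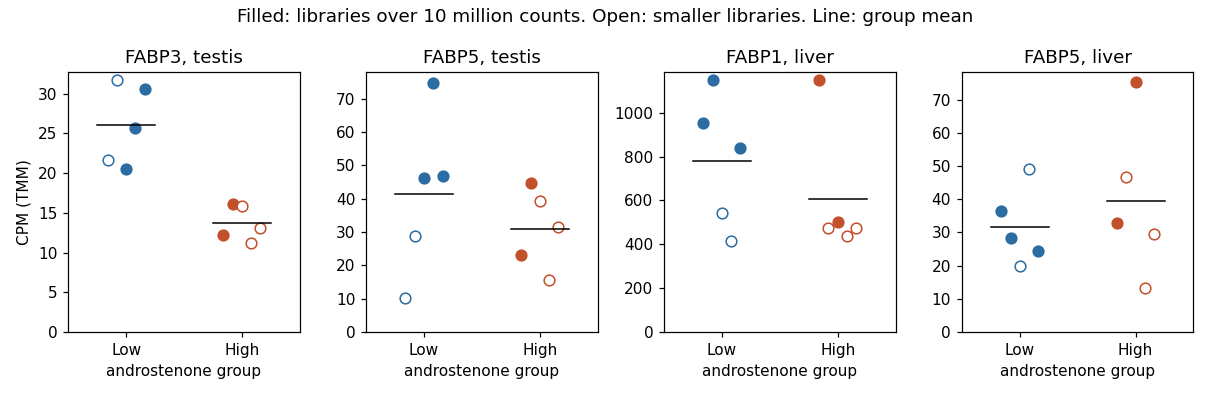
Level in CPM on linear axes that start at 0 of FABP3 and FABP5 in testis and of FABP1 and FABP5 in liver, for the 5 samples of each androstenone group. Filled points are libraries over 10000000 counts, open points smaller libraries, and lines are group means. The FABP3 groups do not overlap in testis, which is the pattern that chose the gene and therefore also holds within either kind of library. In liver, the 4 highest FABP1 levels, 841 to 1149 CPM, are all filled points.

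The third comparison was the same contrast in liver, where androstenone is degraded. FABP1 had a log2 fold change, high over low, of -0.29 (SE 0.35, adjusted p = 0.9998 by edgeR), with a 95% interval from -1.04 to 0.46. The exact permutation test gave p = 0.405 (n = 5 per group). The interval therefore includes both no difference and a level in high androstenone livers of 0.487 times that in low. Of the 5 larger liver libraries, 4 lay above all 5 smaller ones in FABP1. The larger libraries averaged 981 CPM in Liver Low (n = 3) and 825 in Liver High (n = 2). The smaller ones averaged 477 (n = 2) and 462 CPM (n = 3). Within these library sizes the log2 fold change was -0.21 and -0.021, and with a term for library size in the fit of all 10 livers it was -0.10 (adjusted p = 0.99999 by edgeR). Leaving out 1 liver at a time gave -0.61 to -0.12, the first without Liver High 1, which had the highest FABP1 level of all livers.

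FABP5 in liver averaged 31.7 ± 11.5 CPM (SD, n = 5) in Liver Low and 39.5 ± 23.3 CPM (SD, n = 5) in Liver High. Its log2 fold change was 0.37 (SE 0.38, adjusted p = 0.9998 by edgeR), with a 95% interval from -0.45 to 1.19, and the exact permutation p was 0.738 (n = 5 per group). The difference was 0.89 among larger and -0.18 among smaller libraries. Without Liver High 3, the liver with the largest FABP5 level, the log2 fold change was 0.031.

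FABP3 in liver averaged 1.78 ± 1.39 CPM (SD, n = 5) in Liver Low and 1.68 ± 1.53 CPM (SD, n = 5) in Liver High. The log2 fold change was 0.020 (SE 0.60, adjusted p = 0.9998 by edgeR), with a 95% interval from -1.26 to 1.30, and the exact permutation p was 0.698 (n = 5 per group). This interval includes a change of the size seen in testis, and single livers ranged from 0.224 to 4.26 CPM. The log2 fold change was 1.05 among larger and -1.13 among smaller libraries. None of the 3 fitted genes was called in liver, next to 0.0% of 15855 IDs. At an unadjusted p under 0.05, 2.93% of the IDs passed, and DESeq2 called 7.

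**Figure D3:**
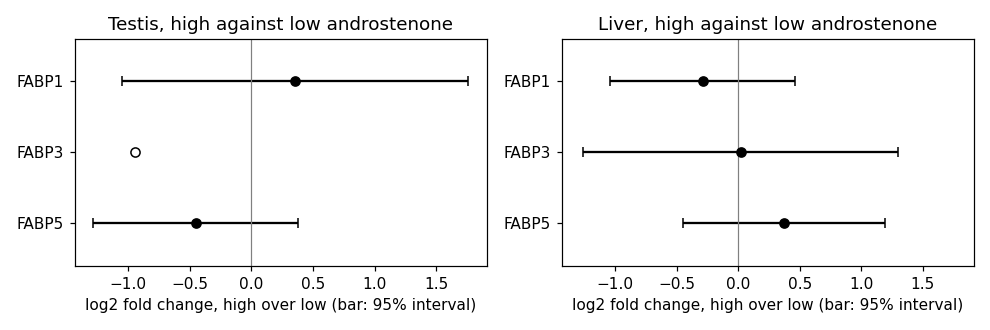
Log2 fold change, high over low androstenone, of FABP1, FABP3 and FABP5 in testis and liver, with 95% intervals for 5 of the 6 points from edgeR's quasi-likelihood fit (n = 5 samples per group). The open point without an interval, FABP3 in testis at -0.94, is the value that chose the gene and is a description. The intervals of the other 5 points include 0.

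Whether the high over low difference itself differed between testis and liver was tested as an interaction over all 20 samples. FABP5 had an interaction of -0.76 on the log2 scale (SE 0.59) and FABP1 one of 0.74 (SE 0.75), each with an adjusted p of 0.99999 by edgeR. For FABP3 the interaction was -0.97, given as a description because it contains the testis values that chose the gene. FABP1, FABP2 and FABP5 were not called, next to 0.0% of 19065 IDs, of which 4.67% had an unadjusted p under 0.05 and DESeq2 called 1. The opposite signs of FABP5 in testis and liver were thus within the error of the fit.

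The levels of other genes were compared with those of the family members across the 10 samples of a tissue, among IDs with a symbol and a mean of at least 5 CPM. In testis, 3211 such IDs were ranked by Pearson's r with each gene. The 3 most like FABP3 were RBM8A, a subunit of the exon junction complex (r = 0.966, Spearman's rho = 0.976), MYL6B, a myosin light chain (r = 0.956, rho = 0.952), and UCHL1, a ubiquitin hydrolase of neurons and spermatogonia (r = 0.954, rho = 0.952). UCHL1 averaged 51.7 CPM in Testis Low and 26.6 in Testis High, MYL6B 83.6 and 54.8, and RBM8A 97.8 and 79.8. These correlations hold the difference between the androstenone groups that chose FABP3. Without the 2 samples farthest from the median, r was 0.949, 0.954 and 0.939 for RBM8A, MYL6B and UCHL1.

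The 3 genes most like FABP5 in testis were PECAM1, an adhesion molecule of endothelial cells (r = 0.936, rho = 0.927), MSN, which links membrane and actin (r = 0.919, rho = 0.927), and SLA-DQA1, an MHC class II chain (r = 0.917, rho = 0.952). Without the 2 samples farthest from the median, r was 0.906, 0.892 and 0.932. PECAM1 ranged from 9.34 to 35.2 CPM over the testes. The sum of 3 endothelial genes, PECAM1 among them, ranged from 17.7 to 74.5 CPM in Testis Low and from 24.7 to 43.9 CPM in Testis High. PECAM1 was the largest part, with means of 25.8 and 20.6 CPM, beside KDR with 6.28 and 6.23 and CLDN5 with 13.9 and 8.19. In liver the sum was higher, 113 to 193 CPM in Liver Low and 86.6 to 145 in Liver High. Sums of 3 macrophage genes ranged from 2.43 to 13.2 CPM in Testis Low and from 3.45 to 6.43 CPM in Testis High. They ranged from 416 to 710 CPM in Liver Low and from 484 to 678 in Liver High. Of 3 epidermal genes, the keratin KRT5 was at 0 in all 20 samples, while KRT10 averaged 29.8 CPM in Testis Low, 25.7 in Testis High, 17.7 in Liver Low and 16.1 in Liver High. The third, IVL of the cornified envelope, averaged 2.82 CPM in Testis Low and 2.30 in Testis High and was at 0 in every liver. Whether endothelial content had a part in the FABP5 level was not tested.

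In liver, 3091 IDs were ranked. PKIA, an inhibitor of protein kinase A (r = 0.920, rho = 0.830), DNAJB13, a protein of motile cilia and flagella (r = 0.916, rho = 0.855), and ANGPT1, a vascular growth factor (r = 0.903, rho = 0.721), were most like FABP1. KCTD20 (r = 0.878, rho = 0.794), the potassium channel gene KCNJ8 (r = 0.856, rho = 0.745) and the asparaginyl-tRNA synthetase gene NARS (r = 0.849, rho = 0.648) were most like FABP5. Without the 2 samples farthest from the median, r fell to 0.875, 0.891 and 0.858 for PKIA, DNAJB13 and ANGPT1, and to 0.758, 0.702 and 0.811 for KCTD20, KCNJ8 and NARS. All these likenesses are the highest among all the IDs ranked over 10 libraries that also differ in depth, and they carry no test.

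Genes that act beside the binding proteins were compared between the tissues from fixed lists. Of the relatives in the family of lipid binding proteins, 8 of 11 symbols had an ID and 7 were tested. There 3 were called higher in testis and 2 higher in liver, close to the 43.5% and 32.2% of all IDs, with a median log2 fold change of 0.12 beside 0.31 for all IDs. RBP5, a retinol carrier, had 2.43 ± 1.69 CPM in testis and 149 ± 69.2 CPM in liver (SD, n = 10 each). Those called higher in testis, FABP7 of brain, CRABP2 and RBP7, averaged 0.273, 0.510 and 0.588 CPM in testis. These are low levels, from 45, 77 and 99 reads over all testes. PMP2 of myelin had 14 reads in testis and 7 in liver, and FABP6, the bile acid carrier of the ileum, 2 reads in each tissue.

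Fatty acids enter the cell and are joined to coenzyme A before use. Of 11 genes tested for uptake and activation (11 of 19 symbols had an ID), 7 were called higher in liver and 2 higher in testis, beside the 32.2% and 43.5% of all IDs, with a median of -2.04. ACSL1, an acyl-CoA synthetase, averaged 20.2 ± 13.0 CPM in liver and 0.128 ± 0.125 CPM in testis (SD, n = 10 each). DBI, the acyl-CoA binding protein, was lower in testis by a log2 fold change of -3.62 (SE 0.25) and ACSL5 by one of -3.47 (SE 0.37). In the other direction, LPL, the lipase that frees fatty acids from blood lipoproteins, reached 9.91 ± 3.27 CPM in testis and 0.811 ± 0.686 CPM in liver (SD, n = 10 each). CAV1, the coat protein of caveolae, was higher in testis by 1.01 (SE 0.22).

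Nuclear receptors of lipids to which these carriers can deliver ligands gave 3 calls in liver and 2 in testis of 7 IDs, beside 32.2% and 43.5% of all IDs, with a median of -0.53. With raw totals the liver calls were 2 and the median turned to 0.44. Over all 19065 IDs the median then moved from 0.31 to 1.28, and the liver calls fell from 6143 to 3577. HNF4A and PPARA, receptors that drive liver and fatty acid oxidation genes, were higher in liver with log2 fold changes of -5.31 (SE 0.26) and -3.09 (SE 0.39). RXRB was higher in liver by -0.75 (SE 0.18), a sign that turned with raw library totals. PPARG, the receptor of adipocytes, and RXRG, a retinoid X receptor, were higher in testis by 3.20 (SE 0.34) and 4.20 (SE 0.42). PPARD was represented by 2 IDs, which may share reads, and neither was called.

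All 11 beta-oxidation genes tested (11 of 18 symbols had an ID) were called higher in liver, beside 32.2% of all IDs. Their median log2 fold change was -3.65, beside 0.31 for all IDs. With raw totals all 11 were again called higher in liver, with a median of -2.69 beside 1.28 for all IDs. With TMM scaling, the largest difference belonged to ACAA1, a thiolase of the peroxisome, with -5.51 (SE 0.29). The smallest was HADHA, a subunit of the mitochondrial trifunctional protein, at -1.68 (SE 0.22).

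Of 10 genes of lipid storage and release (10 of 15 symbols had an ID), 8 were called higher in liver and 2 higher in testis, beside the 32.2% and 43.5% of all IDs, with a median of -3.15. The 8 calls in liver became 7 with RLE scaling, 6 with DESeq2 and 5 with raw totals. Over all 19065 IDs, the liver calls went from 6143 to 6006, 6009 and 3577 in the same order. CIDEB, a lipid droplet protein of hepatocytes, averaged 454 ± 324 CPM in liver and 0.176 ± 0.130 CPM in testis (SD, n = 10 each). CIDEC and the droplet coat gene PLIN5 were higher in liver as well, with 25.7 and 2.40 CPM against 0.219 and 0.0452 CPM in testis. LIPE, the hormone-sensitive lipase, was higher in testis, with 23.0 ± 7.65 CPM against 0.186 ± 0.171 CPM in liver (SD, n = 10 each), and PNPLA2 was higher in testis by 0.79 (SE 0.32). With raw totals the sign of DGAT1 turned in this list, and that of ACSL3 in the list of uptake and activation. In the contrasts of high and low androstenone, none of the genes on these 5 lists was called in either tissue. That is no trait of the lists, since 0.0% of all 18340 IDs in testis and of all 15855 IDs in liver were called.

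**Figure D4:**
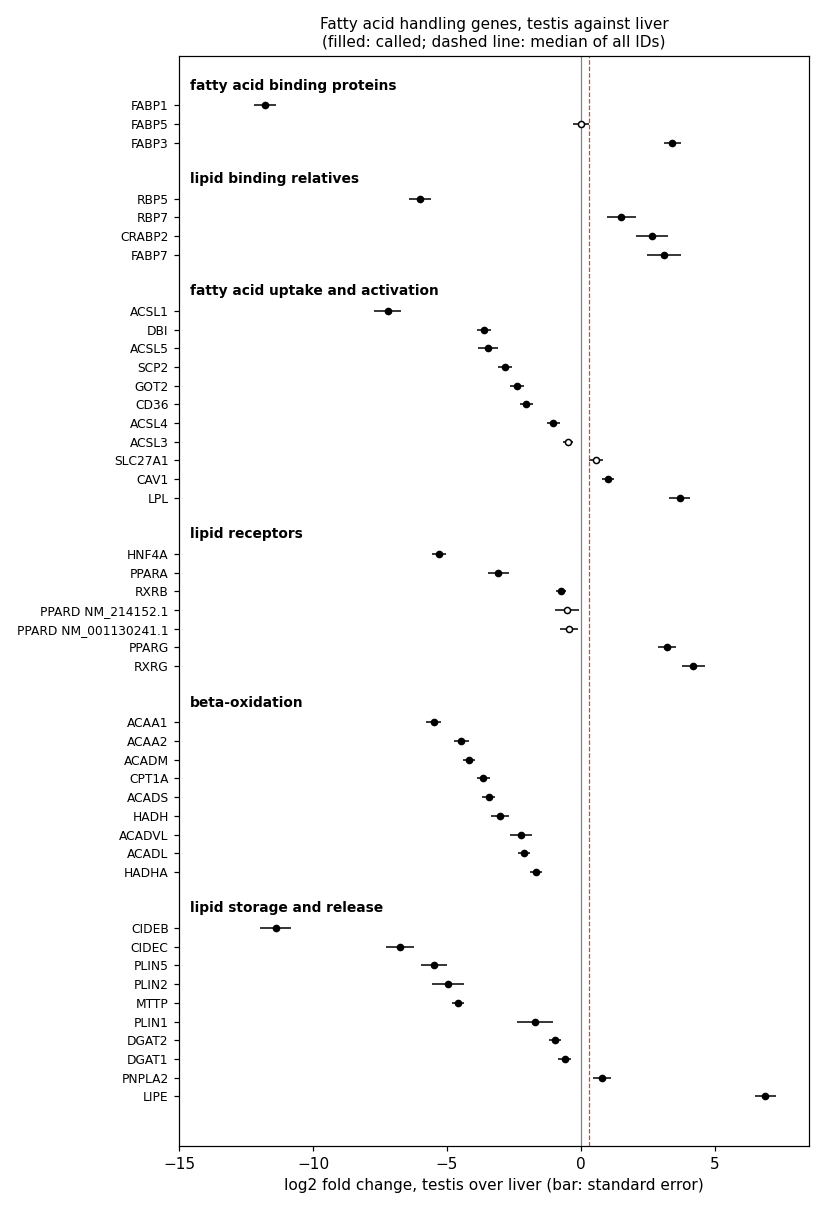
Log2 fold change, testis over liver, of the fatty acid binding proteins and of the 5 lists of genes for lipid handling, with standard errors from edgeR over 20 samples. Filled points passed both thresholds, open points did not, the dashed line marks the median of all IDs at 0.31, and genes below 0.188 CPM on average in both tissues (FABP2, RBP2 and PMP2) and a few genes not reported here are left out. The 9 beta-oxidation genes drawn lie left of 0, while FABP3, LPL, PPARG, RXRG and LIPE lie to the right.

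The markers of further cell types were read in the same way. Hepatocyte sums of 4 genes ranged from 32.8 to 120.4 CPM over the testes and from 84605 to 247285 CPM over the livers. By group mean, most of the testis sum was APOA1, with 55.4 CPM in Testis Low and 35.9 in Testis High. The source of the few FABP1 reads in testis was not tested. The sum of 4 adipocyte genes, LEP, LIPE, PLIN1 and CIDEC, lay between 38.3 and 76.0 CPM in the testes and between 5.83 and 59.2 CPM in the livers. Nearly all of the testis sum was LEP and LIPE. PLIN1 averaged 0.191 CPM in Testis Low and 0.273 in Testis High, and CIDEC 0.151 and 0.287 CPM. Both were higher in liver, so the list did not go one way. Of the enterocyte list, 2 of 6 symbols had an ID, and one of them, APOA4, was itself a liver gene here with a mean of 11834 CPM in Liver Low, so the list did not mark intestine beside FABP2. The germ cell gene ACRV1 was present in liver with means of 90.3 CPM in Liver Low and 43.1 in Liver High, as was the Leydig cell gene HSD3B1 of steroid synthesis, with 9.32 CPM in Liver Low and 2.73 in Liver High against 3.55 in Testis Low and 2.74 in Testis High. The other 3 Leydig cell genes had few reads in liver, 10 for CYP17A1, 49 for INSL3 and 4 for LHCGR in all livers.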

How the data were processed

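The authors aligned 100 bp single reads with BWA to RefSeq mRNAs and UniGene transcripts of Sscrofa 9.2 and deposited raw counts of reads per reference ID. CASAVA 1.7 and SAMtools are also named in the submitters' notes. How reads that match several sequences were counted, and whether strand was used, is not given in the sources used here. Each of the 20 files has 21785 lines for 21755 IDs, since 10 IDs are repeated with an identical count, of which 1 was kept. The RefSeq table gave a symbol to 6654 IDs.

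From these counts, TMM scaled CPM and edgeR 4.0.16 quasi-likelihood fits (R 4.3.3) were computed for IDs with at least 10 summed counts, with Benjamini-Hochberg adjustment over all IDs. The within-tissue fits used the 10 samples of a tissue, and the tissue and interaction fits all 20. A call required an adjusted p below 0.05 together with a change of 1.5-fold or more. Standard errors are the absolute log2 fold change over the square root of F. Exact permutation tests used log2(CPM + 0.5). Intervals of counts are exact 95% intervals, cover counting error only, and treat amplified reads as independent. The p-values measure the spread between the samples of a group, which the study describes as separate boars. The procedure was tested on simulated data.

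Alternatives were DESeq2 1.42.0, RLE scaling, the trended dispersion alone, a weaker and a stricter filter, IDs summed by symbol, a term for libraries over 10000000 counts, the replicate number as a block and leaving out each sample. Raw totals, libraries of one size only, and the tissues within each androstenone group were added after seeing the data. The named genes were all members, up to 3 called symbols per direction and lipid list with the largest tissue difference, any listed gene called between androstenone groups (there were 0), and the 3 IDs most like each member. Some genes that this rule names are not reported here. The marker genes AMH, SOX9, CLU, ALB, TNP1, ACTA1, MYH7, MYL2, TNNC1, KRT5, KRT10, IVL, APOA4, ACRV1, CYP17A1, HSD3B1, INSL3, LHCGR and LEP, and HADHA, DGAT1, ACSL3, RXRB, PMP2, RBP2, FABP6 and PPARD where they fall outside this rule, were named after their values were seen. PLIN1, APOA1, KDR and CLDN5 were also named after their values were seen. The members and lists were chosen with earlier results of these data known. Summaries used Python 3.11.15, numpy 2.4.6, scipy 1.17.1, pandas 2.3.3 and matplotlib 3.10.9.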

Additional observations from a re-analysis of the deposited data

Results flagged for a closer look

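There were 13 groups of 5 samples in which a fatty acid binding protein had more than 3 reads in some sample. In 3 of them, the distance of 1 library from the next exceeded 0.71 of the group's whole range. For 5 normally distributed values, chance gives such a distance in about 1 of 20 groups. Levels from few reads, as for FABP2 and for FABP3 in liver, need not keep that rate, and no excess over chance is read here. All 3 flagged libraries were livers. FABP1 in Liver High 1 stood at 1149 CPM, with a gap of 0.911 of the range, while the other 4 libraries of that group lay between 437 and 500 CPM. FABP3 in Liver Low 3 stood at 4.26 CPM (29 reads), with a gap of 0.887 of the range. FABP2 in Liver High 5 stood at 0.916 CPM, with a gap of 0.921, from 5 of the 9 FABP2 reads of all livers. The cause was not tested for any of them.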

How the results depend on the processing

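The tissue calls of FABP1 and FABP3 held under all alternatives run, with log2 fold changes of -12.08 to -11.62 and 3.30 to 3.76 when 1 library was left out. In testis, 1 of the 3 fitted members passed both thresholds with DESeq2 and 1 with the trended dispersion alone. In both cases it was FABP3, which this contrast chose. Calls over all IDs rose from 0 to 120 (DESeq2), 225 (trended dispersion), 5 (smaller libraries only) and 2 (without Testis Low 5) in testis, from 0 to 7 and 45 in liver with the first 2 of these, and from 0 to 1 and 46 for the interaction. Small values changed sign. FABP3 in liver (0.020) became -0.022 with DESeq2, -0.17 with raw totals, -0.16 with the replicate block and -1.13 in the smaller libraries (1.05 in the larger), and ranged from -0.59 to 0.67 with 1 library left out. FABP5 between tissues (0.013) became -0.047 with the stricter filter, -0.029 with the library size term and -0.0035 with the replicate block, and ranged from -0.15 to 0.20. In the smaller libraries FABP5 turned to 0.57 in testis and -0.18 in liver. FABP1 in testis ranged from -0.22 (without Testis High 1) to 0.64. Mean levels in raw CPM were 36.2 and 19.4 for FABP3 in Testis Low and High and 43.8 for FABP5 in Testis High. The cause was not tested, apart from the smaller number of samples where libraries were left out.

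The labels do not tie same-numbered samples to a boar, and their deviations from the group means correlated between -0.08 and 0.19 in testis and between -0.36 and 0.49 in liver, with 1 of 5 samples closest to its own number in each. Between testis and liver the range was -0.03 to 0.15 in the low and -0.04 to 0.42 in the high group, with 2 of 5 closest to their own number. The replicate block left 0 calls in testis, liver and the interaction, and kept the 3 tissue calls of the members (14201 IDs called in all). FABP2 in both tissues and FABP1 in testis were at or near the level of 3 counts.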
